A study of Mus musculus with 6 samples.

Results

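The major urinary protein (Mup) genes were followed as 10 genes, Mup1, Mup3, Mup7, Mup12, Mup14, Mup15, Mup16, Mup17, Mup20 and Mup21, chosen by name in a deposited expression table of 34745 gene rows. The table holds 49 rows named Mup or Mup-ps, so 39 further family rows, most of them pseudogenes or low, stand beside the 10. All 10 genes were among the 11435 genes tested, those with an FPKM (fragments per length of gene, with the library's total count taken into account) of at least 1 in at least 2 libraries. Mup1 and Mup14 reached that level in male libraries alone.

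Liver of C57BL/6 mice was profiled by mRNA sequencing in 6 libraries, 1 for each combination of tissue and sex. The 3 tissues were liver tumour, labelled hepatocellular carcinoma, of Hras12V transgenic mice, the precancerous liver next to it, also of Hras12V transgenic mice, and normal liver of wild-type mice. All 3 male libraries came from mice of 9 months and all 3 female libraries from mice of 15 months, and no mouse was treated. Sex and age therefore cannot be told apart. Hras12V is an activated form of the RAS signalling protein; the labels name neither the promoter of the transgene nor the number of mice behind a library.

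Major urinary proteins are small secreted lipocalins, barrel-shaped carriers that bind volatile pheromones. Mouse hepatocytes make them, release them into the blood, and the kidney passes them into urine, where they hold and slowly release scent. Male liver is known to make far more than female liver, under pulsed growth hormone acting through its receptor, JAK2 and STAT5B, and under androgen, thyroid hormone and glucocorticoid. Mup20 encodes darcin, the male pheromone protein that female mice learn to recognise.

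The 10 genes lay on the minus strand of chromosome 4 (GRCm38), from Mup7 at 60066469 to Mup21 at 62150863, and their coding sequences fell into 3 sets. Mup1, Mup7, Mup12, Mup14, Mup15, Mup16 and Mup17 each had 180 codons, not counting the stop. Any pair of them was identical at 98.5% to 99.6% of coding bases. Mup20, with 181 codons, was 90.1% to 91.0% identical to these 7 genes. Mup3 and Mup21, with 184 and 181 codons, were 94.7% identical to each other and at most 84.5% identical to the 7. The following stretch, bases 121 to 180 of the coding sequence counted along Mup7, is shown because it separates the sets: the 10 genes held 6 distinct versions of it. The sequences are those of the GENCODE M21 transcripts, read 5′ to 3′, and capitals mark bases that differ from Mup7.
Mup7: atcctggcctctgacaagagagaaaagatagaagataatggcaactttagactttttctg
Mup1, Mup12, Mup14 and Mup15: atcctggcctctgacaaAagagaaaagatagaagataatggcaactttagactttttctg
Mup16: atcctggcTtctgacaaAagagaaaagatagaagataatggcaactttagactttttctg
Mup17: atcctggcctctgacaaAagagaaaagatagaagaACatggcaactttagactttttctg
Mup20: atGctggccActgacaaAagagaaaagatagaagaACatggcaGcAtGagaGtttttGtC
Mup3 and Mup21: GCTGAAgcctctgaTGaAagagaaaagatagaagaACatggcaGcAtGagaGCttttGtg

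Mup20 differed from Mup7 at 11 of these 60 bases and Mup3 and Mup21 at 17, against 1 to 3 for the other members. How far a read can be given to 1 gene follows from this. Of the distinct 100-base windows in its transcripts, Mup3 shared 2.23% with any other Mup gene, Mup21 shared 4.50% and Mup20 shared 38.8%, the last with the pseudogene Mup-ps19 alone. Mup1 shared 55.7% and Mup17 59.4%, while Mup14, Mup7, Mup12, Mup16 and Mup15 shared 75.7%, 76.1%, 77.5%, 82.4% and 97.3%. With 50-base windows Mup3 shared 13.3%, Mup21 19.3% and Mup20 50.1%, and Mup20 then shared windows with 24 Mup genes. Levels of Mup3 and Mup21 thus rest mostly on sequence of their own. The split of counts among the other genes is uncertain, that of Mup15 most of all. No source used here gives how reads with several matches were counted. No exonic base of any of the 10 genes lay under an annotated exon of the opposite strand.

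**Figure D1:**
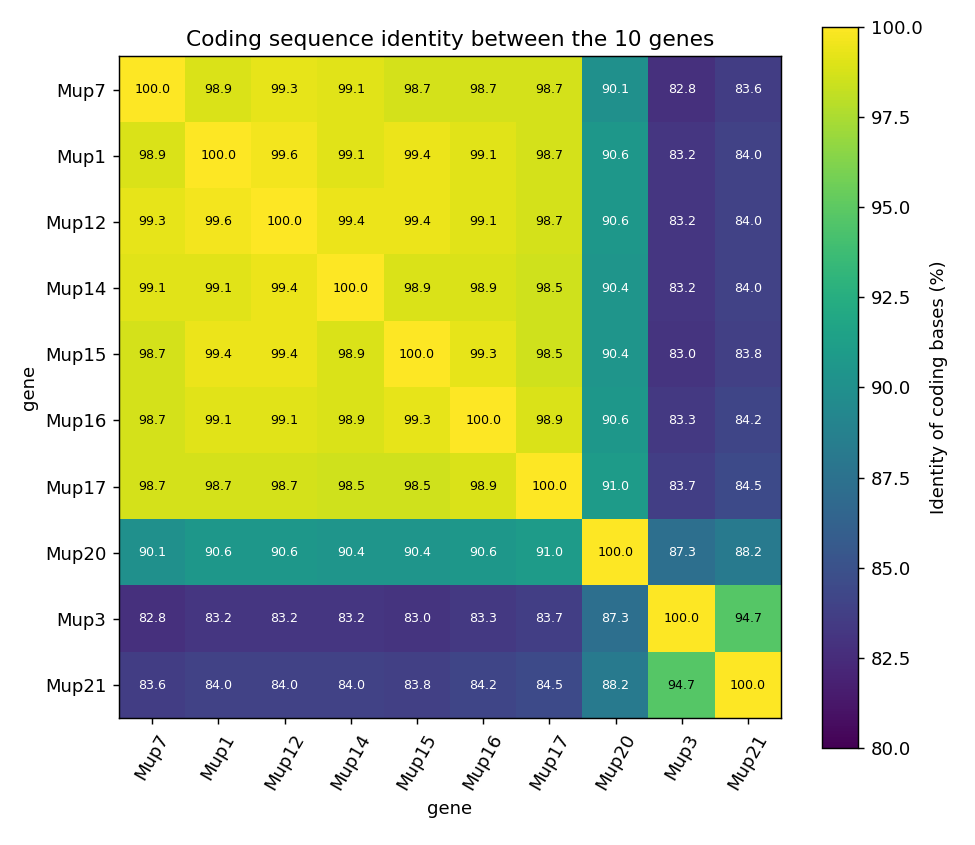
Identity of coding bases (percent, colour and number) between each pair of the 10 genes, both axes in the same order. The 7 genes from Mup7 to Mup17 form a block at 98.5% or more, Mup20 stands at about 90% to that block, and Mup3 and Mup21 pair at 94.7%.

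RefSeq promoter windows (250 bases before to 50 after the annotated start, GRCm38.p6) were given for 6 of the 10 genes, Mup3, Mup7, Mup14, Mup15, Mup17 and Mup21. The matching stretches of Mup15, Mup3 and Mup21 are shown to set the promoter of a near-identical gene beside those of the more distant pair; each runs from an upstream match to ATTGAT, which reads atcaat on the gene's strand, to the shared box tatataagg. Capitals mark bases not matched to Mup15 when the pair was aligned.
Mup15, chr4:61439721-61439913, minus strand: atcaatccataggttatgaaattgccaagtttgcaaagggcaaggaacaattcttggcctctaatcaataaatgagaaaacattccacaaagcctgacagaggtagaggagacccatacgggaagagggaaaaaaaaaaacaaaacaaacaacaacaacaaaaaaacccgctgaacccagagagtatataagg
Mup3, chr4:62087320-62087479, minus strand: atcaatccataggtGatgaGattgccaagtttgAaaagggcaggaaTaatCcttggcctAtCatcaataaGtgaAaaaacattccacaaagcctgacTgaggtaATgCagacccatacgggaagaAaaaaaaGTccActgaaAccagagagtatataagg
Mup21, chr4:62150841-62150997, minus strand: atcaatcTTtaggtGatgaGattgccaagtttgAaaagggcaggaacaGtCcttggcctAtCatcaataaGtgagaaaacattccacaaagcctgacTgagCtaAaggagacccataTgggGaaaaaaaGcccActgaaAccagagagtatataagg

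Identity to Mup15 was taken as matched bases over the length of the longer stretch. It was 73.6% in Mup3 and 72.0% in Mup21, against 92.2% in Mup14 and 98.5% in Mup17. Bases missing from a shorter stretch count as differences here, and the stretch had 193 bases in Mup15. Of the 160 bases of Mup3 and the 157 of Mup21, 18 in each were not matched. ATTGAT, searched on both strands, was found in all 6 member promoters and in 7.54% of 32817 promoters of the same length. TTCNNNGAA, the spaced palindrome known for STAT5, was found in 0 of 6 and in 8.29% of all promoters. TATAAA was found in 0 of 6 and in 13.6%. These are matches of letters in a short window and nothing more.

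The libraries of the 2 sexes differed outside the Mup genes, which bears on every comparison of males with females. Library totals were 5996585 to 7347064 counts in males and 15047022 to 18434508 in females. The 2316 annotated antisense genes took 0.402% to 0.535% of the counts in male libraries and 0.0526% to 0.0681% in female libraries. The mitochondrial gene mt-Co1 was listed at 0 FPKM in every male library and at 9344 to 21499 FPKM in female libraries. Sex, age and whatever differed in making these libraries cannot be told apart, and the comparisons of tissues below were made within each sex or with sex as a term. Markers of hepatocytes were present in full in every library, and the summed FPKM of the 8 markers was 63469 to 66100 in tumours, 48588 to 52705 in precancerous liver and 34091 to 47303 in normal liver. Albumin (Alb) made up most of each sum, and the other 7 markers, a sum chosen after seeing the data, came to 12724, 11322 and 11693 FPKM in male tumour, precancerous and normal liver and to 8870, 11574 and 11920 FPKM in the female tissues.

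As a family, the 10 genes were far lower in tumour than in precancerous liver in both sexes, and normal male liver stood above all other libraries. Their share of all counts was 0.245% in male tumour, 1.51% in male precancerous liver and 3.60% in male normal liver. In females it was 0.0409% in tumour, 0.189% in precancerous liver and 0.0825% in normal liver. The 95% Wilson interval of the share, which covers counting error only, was 3.59% to 3.62% in male normal liver and 0.0811% to 0.0838% in female normal liver. The order of the tissues thus differed between the sexes: the share was highest in normal liver in males and in precancerous liver in females.

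The summed FPKM of the 10 genes was 2267 in male tumour, 9885 in male precancerous liver and 24016 in male normal liver, and 319, 1197 and 529 in the same female tissues. The folds that follow are of the share of all counts, not of summed FPKM. Male tumour was 6.16-fold below male precancerous liver (95% exact counting interval of the fold 6.06 to 6.26). Female tumour was 4.62-fold below female precancerous liver (4.51 to 4.74). Precancerous liver was 2.39-fold below normal liver in males (2.37 to 2.40) and 2.29-fold above it in females (2.25 to 2.34). With 1 library in each group these pairs have no replicates and no test, and in bulk tissue fewer cells of a type and less RNA per cell cannot be told apart.

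The make-up of the family changed as well as its size. In male tumour Mup20 alone gave 75.9% of the family's FPKM, with Mup3 at 18.4% and Mup7 at 0.881%. In male precancerous liver Mup3 gave 49.3%, Mup7 18.2% and Mup20 17.7%. In male normal liver Mup7 gave 33.7%, Mup3 21.2% and Mup20 20.9%. Female tumour also held Mup20 in first place, at 48.8%, with Mup3 at 44.5%. Female precancerous and normal liver were mainly Mup3, at 79.7% and 75.6%, with Mup20 at 1.73% and 4.79%. By FPKM Mup20 was thus first of the 10 genes in tumour of both sexes, and in neither sex was it first in precancerous or normal liver. In female tumour the order was the reverse by counts, 4559 for Mup3 and 2665 for Mup20. FPKM divides by gene length, here 1744 bases for Mup3 and 928 for Mup20.

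**Figure D2:**
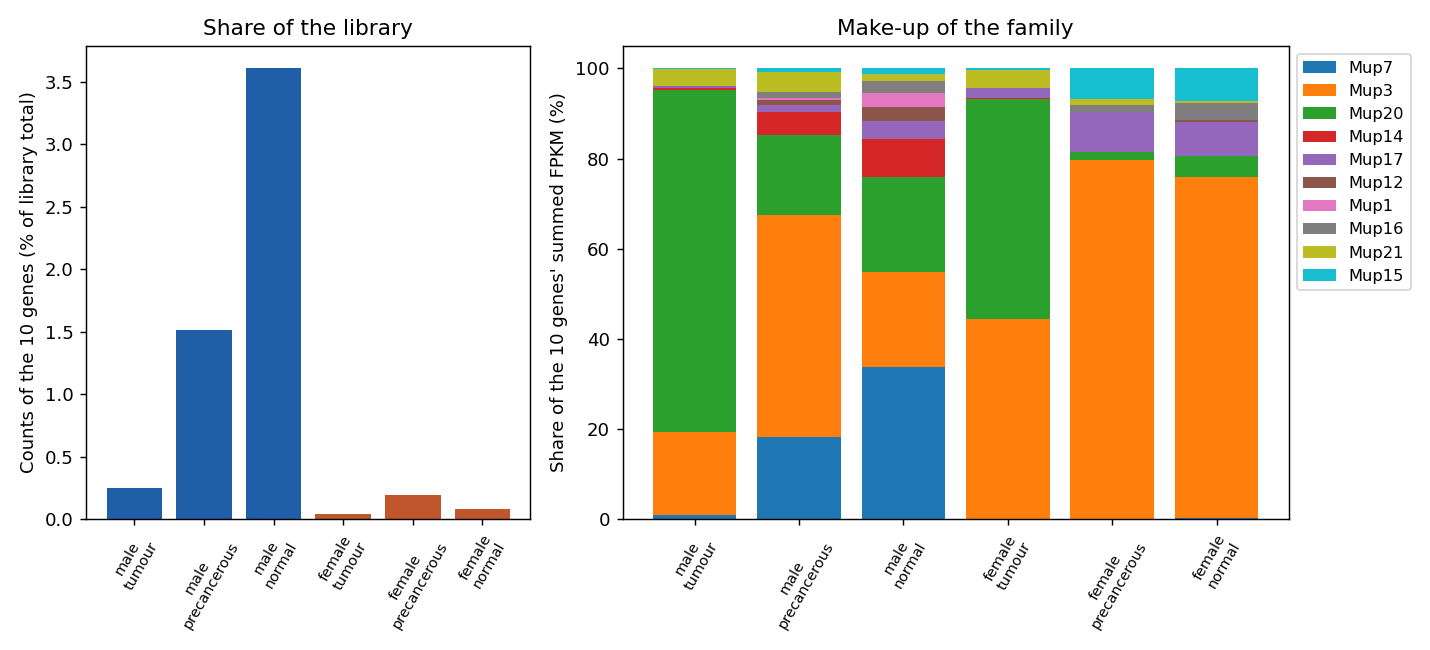
Left, the counts of the 10 genes as a percentage of each library's total, 1 bar per library. Right, the share of each gene in the 10 genes' summed FPKM, in percent. Mup20 (green) fills 75.9% of the male tumour bar and 48.8% of the female tumour bar, and at most 20.9% of any other bar.

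Mup20, darcin, was the most abundant member by FPKM in both tumours. Its level was 1722 FPKM in male tumour, 1748 in male precancerous liver and 5027 in male normal liver. In females it was 156 FPKM in tumour, 20.7 in precancerous liver and 25.3 in normal liver. Male tumour and male precancerous liver differed by less than counting error (1.02-fold lower in tumour, 0.989 to 1.04), and both were below male normal liver, tumour by 2.92-fold. Female tumour, by contrast, was 7.53-fold above female precancerous liver (6.66 to 8.53) and 6.15-fold above female normal liver (5.54 to 6.84). Over both sexes the tumour-against-precancerous log2 fold change was 1.86 ± 1.03 (SE) and was not called by edgeR's quasi-likelihood test (Benjamini-Hochberg adjusted p = 0.241). It was called higher, at 3.15, without the male tumour library (edgeR adjusted p = 0.00902), and the estimate turned negative, to -0.41, without the female tumour library. Among all 34745 rows Mup20 ranked 27th by FPKM in male tumour, 32nd in male precancerous liver and 10th in male normal liver.

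Mup-ps19, the pseudogene that shares 38.8% of the 100-base windows of Mup20, ran beside it at 40.4, 41.4 and 133 FPKM in male tumour, precancerous and normal liver and at 9.20, 1.28 and 1.09 FPKM in the female tissues. Reads of one may have been counted to the other, and how much was not tested.

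Mup3 was the main member in precancerous liver of both sexes and fell in tumours. Its level was 416 FPKM in male tumour, 4874 in male precancerous liver and 5097 in male normal liver, and 142, 954 and 400.4 FPKM in the female tissues. Each tumour library lay below both other libraries of its sex: 11.7-fold below precancerous liver in males (11.4 to 12.0) and 6.73-fold in females (6.52 to 6.95). Precancerous and normal liver were close in males (1.05-fold lower in precancerous liver, 1.03 to 1.06), whereas precancerous liver was 2.38-fold higher in females (2.33 to 2.44). The additive fit over both sexes gave a log2 fold change of -3.10 ± 0.54 for tumour against precancerous liver (edgeR adjusted p = 0.0165) and -2.61 ± 0.55 for tumour against normal liver (edgeR adjusted p = 0.0208).

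Mup21, the closest relative of Mup3, had 86.0 FPKM in male tumour, 440.4 in male precancerous liver and 408 in male normal liver, and 12.3, 16.0 and 2.18 FPKM in the female tissues. Tumour lay below precancerous liver by 5.12-fold in males (4.61 to 5.69) and by 1.30-fold in females (1.03 to 1.63). Against normal liver the sexes went opposite ways, with male tumour 4.74-fold lower and female tumour 5.67-fold higher. No tissue comparison of Mup21 was called over both sexes (tumour against precancerous log2 fold change -1.16 ± 1.02, edgeR adjusted p = 0.448). Mup21 and Mup3 thus kept their own order in each library: Mup3 was the higher in all 6.

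The 7 near-identical genes were 25.1-fold to 133-fold lower in male tumour than in male precancerous liver, against 11.7-fold for Mup3, 5.12-fold for Mup21 and 1.02-fold for Mup20. Mup7, the most abundant member in male normal liver, had 20.0 FPKM in male tumour, 1804 in male precancerous liver and 8097 in male normal liver. In females it had 1, 21 and 32 counts in the same tissues, 0.0317, 0.816 and 1.06 FPKM. Male tumour was 90.3-fold below precancerous liver (79.8 to 103) and 406-fold below normal liver. Mup7 fell in tumour over both sexes, with a log2 fold change of -6.75 ± 0.79 against precancerous liver (edgeR adjusted p = 0.00649). Without the male tumour library it was -3.98 (edgeR adjusted p = 0.0475), and the female pair alone was 25.7-fold lower in tumour, on 1 and 21 counts (4.14 to 1064).

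Mup14 showed the same male pattern at 12.7, 496 and 2053 FPKM in male tumour, precancerous and normal liver. In females it stood at 9 or 10 counts in each library, 0.251 to 0.294 FPKM, with no difference between tissues detectable at this depth. Its fold change over both sexes, -3.61 ± 2.16 for tumour against precancerous liver, was not called (edgeR adjusted p = 0.275), and it was called at -5.71 without the female tumour library (edgeR adjusted p = 0.00981).

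Mup1 and Mup12 had few counts in any female library. Mup1 had 0.499, 54.4 and 729 FPKM in male tumour, precancerous and normal liver, and 0, 3 and 11 counts in the female tissues. Mup12 had 0.735, 98.1 and 752 FPKM in the male tissues, and 0, 4 and 35 counts in the female tissues. For both genes the male order was strict, tumour lowest and normal liver highest, with each step larger than counting error. Male precancerous liver was 13.4-fold below normal liver for Mup1 (12.5 to 14.4) and 7.67-fold below for Mup12 (7.05 to 8.35). Mup12 was the one member called in precancerous against normal liver (log2 fold change -2.90 ± 0.16, edgeR adjusted p = 0.0214), and Mup1 missed the threshold at -3.39 ± 0.42 (edgeR adjusted p = 0.0655).

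Mup15, Mup16 and Mup17 were the near-identical genes with clear counts in females. Mup15 had 1.03, 66.8 and 275 FPKM in male tumour, precancerous and normal liver, and 1.41, 82.3 and 38.3 FPKM in the female tissues. Mup17 had 6.61, 166 and 958 FPKM in the male tissues, and 7.02, 104 and 39.8 FPKM in the female tissues. For both genes the tumour library was the lowest in each sex and male and female tumour differed by less than counting error (folds of 1.37 for Mup15, 0.571 to 3.76, and 1.06 for Mup17, 0.749 to 1.53, both lower in the male), while normal liver was 7.19-fold higher in males for Mup15 and 24.1-fold higher in males for Mup17.

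Tumour lay below precancerous liver by 64.9-fold in males (31.2 to 162) and 58.5-fold in females (39.1 to 91.7) for Mup15. The log2 fold change of Mup15 over both sexes was -5.87 ± 1.01 (edgeR adjusted p = 0.0158), and that of Mup17 was -4.14 ± 1.19 and missed the threshold (edgeR adjusted p = 0.0598). Precancerous liver was below normal liver in males and above it in females for both genes, by 4.12-fold and 2.15-fold for Mup15 and by 5.77-fold and 2.62-fold for Mup17. Since 97.3% of the 100-base windows of Mup15 occur in other Mup genes, its counts may belong in part to them.

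Mup16 had 1.55, 137 and 619 FPKM in male tumour, precancerous and normal liver, and 0.354, 17.9 and 19.6 FPKM in the female tissues. Tumour was the lowest in both sexes, and female precancerous and normal liver differed by less than counting error (1.09-fold lower in precancerous liver, 0.946 to 1.27). Its log2 fold change for tumour against precancerous liver was -6.32 ± 0.79 (edgeR adjusted p = 0.00716).

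**Figure D3:**
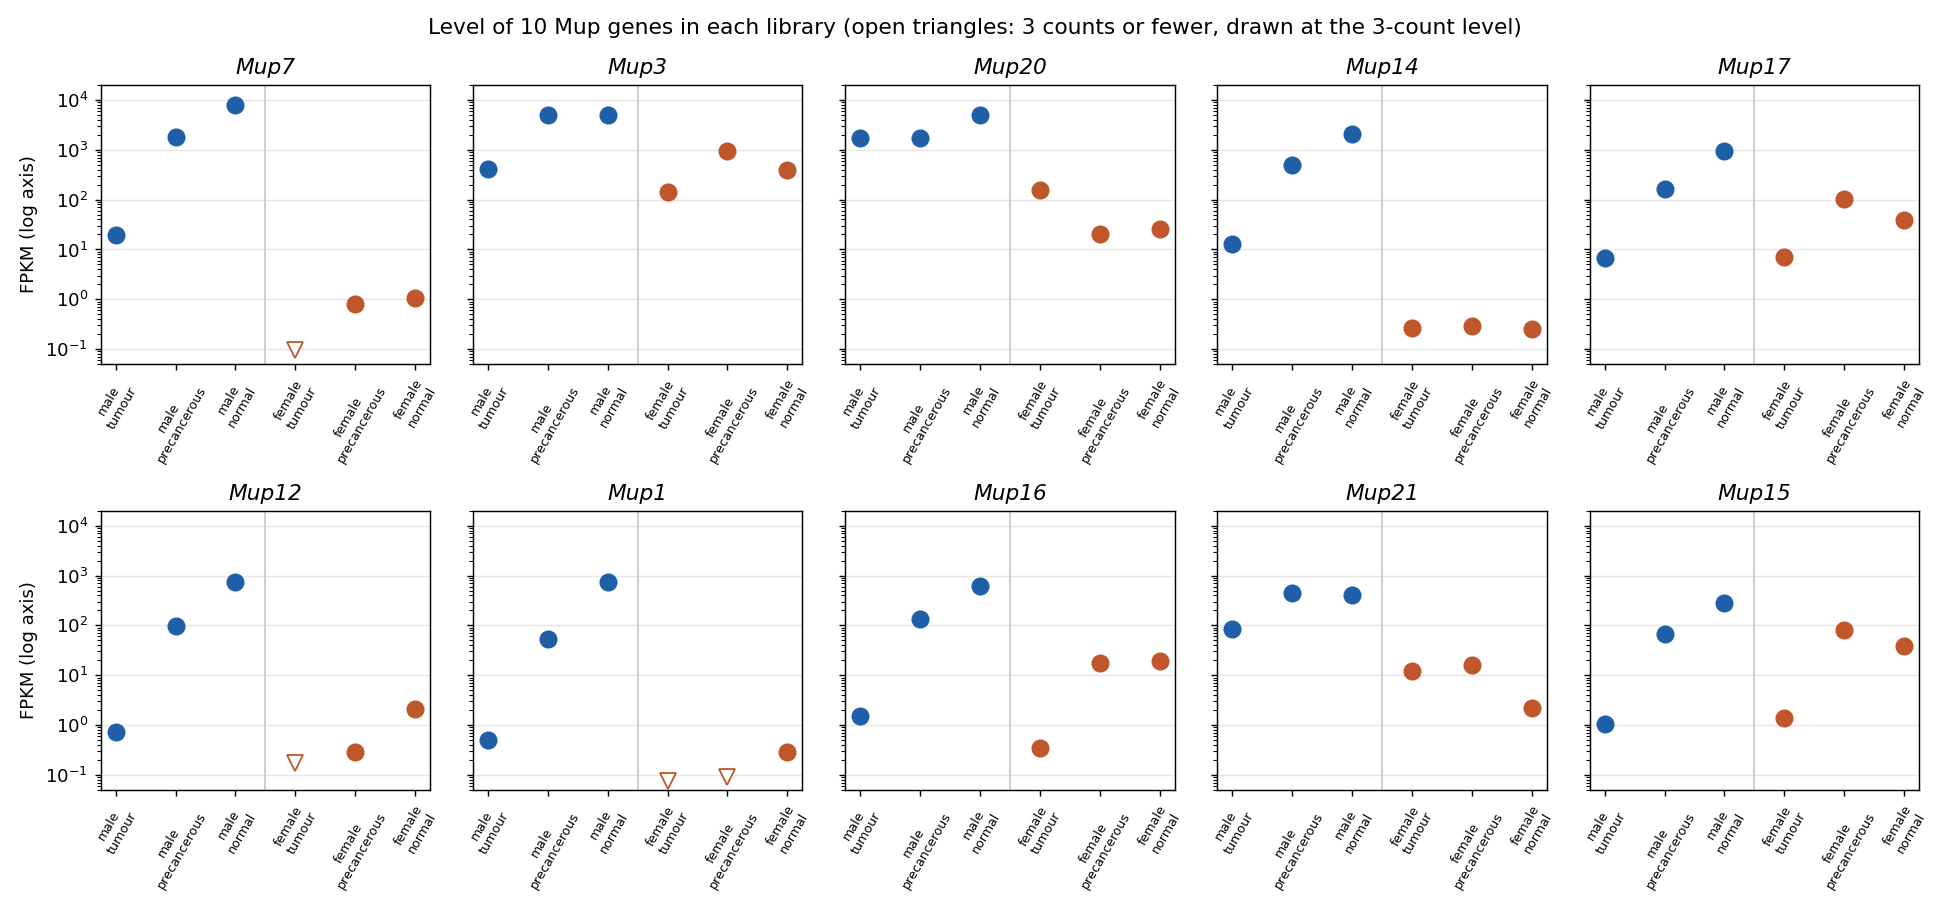
FPKM (log axis) of each of the 10 genes in each of the 6 libraries, males in blue on the left of each panel and females in orange on the right, 1 point per library; open triangles mark 3 counts or fewer and stand at the level of 3 counts. Male points step up from tumour to normal liver in most panels, while Mup20 is level between male tumour and precancerous liver and is highest in tumour among the female libraries.

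Tumour and precancerous liver of the same genotype were compared over both sexes, to show what differed between a tumour and the liver next to it. By the additive fit, 6 of 10 genes fell in tumour, Mup1, Mup3, Mup7, Mup12, Mup15 and Mup16, where 12.1% of all tested genes were called lower, and none rose, where 13.8% were called higher. All of these but Mup3 are near-identical genes that share sequence, so their calls are not separate evidence. The same limit holds for the near-identical genes in the counts of the comparisons below. Mup1 and Mup12 had an FPKM under 1 in both tumours and passed the filter through the other tissues alone, so their fall is no support here; without them the count was 4 of 8. The median log2 fold change of the 10 genes was -5.00, against 0.03 over all tested genes. In single pairs, 9 of 10 genes were at least 2-fold lower in male tumour on the log2(FPKM + 1) scale (4.7% of tested genes were). In females 4 of 10 were at least 2-fold lower (4.85% of tested genes) and 1, Mup20, was at least 2-fold higher (5.94%). On the log2(FPKM + 0.1) scale Mup7 and Mup12 joined those lower in females, making 6. For Mup12 this rested on 0 against 4 counts, which is within counting error (lower end of the fold interval 0.809). The count of 6 was 3, Mup1, Mup7 and Mup12, without the female precancerous library, 5, with Mup3 lost, without the male precancerous library, and 0 when the model had no sex term. Mup1 was also lost without the male tumour library. Mup17 joined the 6 without the male normal or the female normal library. With limma-trend on log2(FPKM + 1) the count was 3, Mup3, Mup15 and Mup16. Of genes higher in tumour, edgeR's unadjusted p under 0.05, DESeq2 and limma also gave 0 of 10, and the same held for genes higher in both comparisons with normal liver and for genes lower in males.

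Tumour was also set against normal liver, which differs in genotype as well. Here 7 of 10 genes fell, the 6 above and Mup17 (log2 fold change -5.28 ± 1.36, edgeR adjusted p = 0.0369), where 16.1% of tested genes were called lower, and none rose, where 17.3% were called higher. The largest fitted falls were those of Mup1, -10.33 ± 0.62, and Mup12, -9.95 ± 0.26 (edgeR adjusted p = 0.00121 and 0.000819), both of which had 0 counts in female tumour, so the fitted sizes depend on the prior count. Without the male tumour library they were -6.44 and -7.72. Both passed the filter through other tissues than tumour alone, and without them the count was 5 of 8. Mup3 and Mup17 lost their call without the male or the female precancerous library, and Mup17 also without the male tumour library, where Mup20 was called higher at 2.24 (edgeR adjusted p = 0.0181). Without the female tumour library Mup14 was called lower at -7.09 (edgeR adjusted p = 0.00430). In males 10 of 10 genes were at least 2-fold lower in tumour (5.97% of tested genes). In females 5 were at least 2-fold lower (6.97%), 7 on the log2(FPKM + 0.1) scale with Mup1 and Mup7, and 2, Mup20 and Mup21, at least 2-fold higher (7.42%).

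Precancerous liver of Hras12V mice and normal liver of wild-type mice were compared to show what differed in the transgenic liver outside the tumour. Over both sexes 1 of 10 genes, Mup12, was called lower, where 0.149% of tested genes were, and none was called higher, where 0.105% were. The 2 sexes differed in single pairs. In males 8 of 10 genes were at least 2-fold lower in precancerous liver (1.77% of tested genes), all but Mup3 and Mup21. In females 1, Mup12, was at least 2-fold lower (1.25%), 2 with Mup1 on the log2(FPKM + 0.1) scale, and 4, Mup3, Mup15, Mup17 and Mup21, were at least 2-fold higher (1.23%). For Mup1 this rested on 3 against 11 counts, which is within counting error (fold interval 0.825 to 17.4). The single call was lost without the male normal, male precancerous or female precancerous library, and Mup1 was called with it without the male tumour, female tumour or female normal library. The 2 comparisons with normal liver share those libraries, and those with precancerous liver share the precancerous ones.

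**Figure D4:**
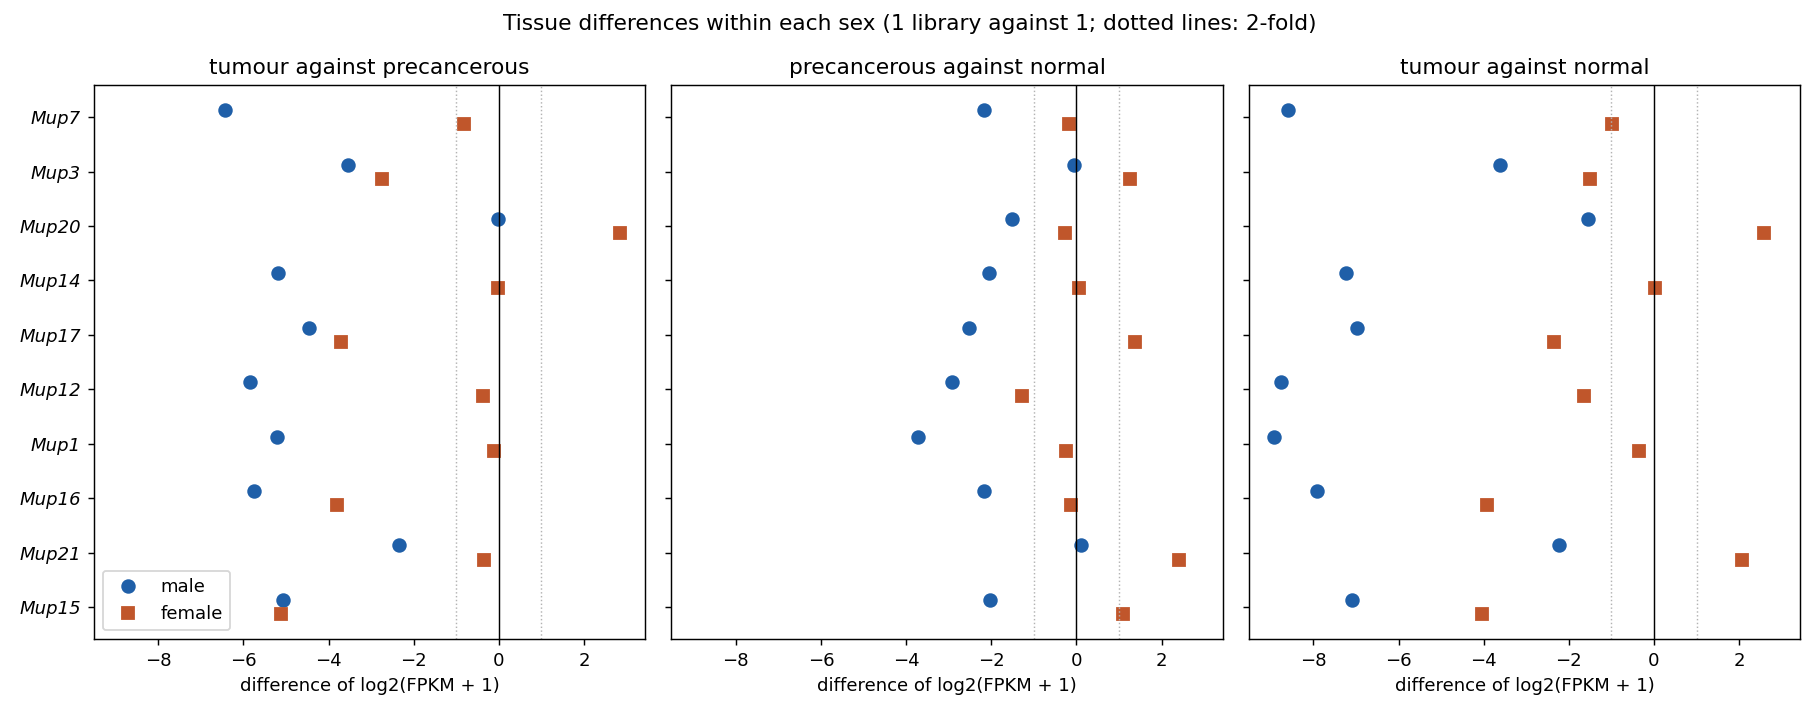
Difference of log2(FPKM + 1) between 2 tissues of the same sex for each of the 10 genes, 1 library against 1, males as circles and females as squares; dotted lines mark 2-fold. In tumour against precancerous liver only Mup20 in females lies right of the 2-fold line, and in precancerous against normal liver 8 male circles lie left of it while 4 female squares lie right of it.

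Male libraries, of 9 months, were set against female libraries, of 15 months. By the additive fit 8 of 10 genes were higher in males, where 19.1% of tested genes were called higher, and none was lower, where 18.2% were called lower. Mup15 (log2 fold change 0.94 ± 0.76, edgeR adjusted p = 0.358) and Mup17 (1.56 ± 1.02, edgeR adjusted p = 0.274) were not called. The called differences ran from 2.43 ± 0.44 for Mup3 to 11.80 ± 0.66 for Mup7 on the log2 scale (edgeR adjusted p = 0.0151 and 0.00119). Mup1 and Mup14 were under an FPKM of 1 in every female library and had passed the filter through male libraries alone. Their place among the 8 therefore says nothing of its own. The other called genes were Mup3, Mup7, Mup12, Mup16, Mup20 and Mup21. The count fell to 3, Mup1, Mup7 and Mup12, without the male or the female precancerous library.

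The gap between the sexes was widest in normal liver and narrowest in tumour for the family as a whole. The 10 genes' share of all counts in males was 6.00-fold that of females in tumour, 7.99-fold in precancerous liver and 43.7-fold in normal liver. The number of genes at least 2-fold higher in males was 5 of 10 in tumour (6.72% of tested genes), 8 in precancerous liver (6.88%) and 10 in normal liver (7.73%). On the log2(FPKM + 0.1) scale these counts were 8, 8 and 10. In normal liver the male level was 7644-fold the female level for Mup7 (counting interval 5414 to 11177) and 12.7-fold for Mup3 (12.5 to 13.0). In tumours Mup20 was still 11.1-fold higher in the male (10.6 to 11.5). Whether the gap differs between tissues was not tested, since a model with an interaction has no residual degrees of freedom.

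Of the 39 other Mup rows, 7 had no count in any library, 22 reached an FPKM of 1 in at least 1 library and 15 were tested. These 22 were Mup2, Mup4, Mup5, Mup6, Mup8, Mup9, Mup10, Mup11, Mup13, Mup18, Mup19 and the pseudogenes Mup-ps6, Mup-ps7, Mup-ps12, Mup-ps13, Mup-ps14, Mup-ps16, Mup-ps17, Mup-ps18, Mup-ps19, Mup-ps20 and Mup-ps22. The highest was Mup11, at 1.08, 84.2 and 605 FPKM in male tumour, precancerous and normal liver and at 0, 0.249 and 1.09 FPKM in the female tissues. Among the 15 tested, 10 fell in tumour against precancerous liver (12.1% of all tested genes) and 13 in tumour against normal liver (16.1%). In precancerous against normal liver 1 fell (0.149%). In males 11 were higher than in females (19.1%) and 1, Mup-ps16, was lower (18.2%). Many of these rows share sequence with the 10 genes, so their counts are not separate evidence.

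Of 21 tested genes within 1 Mb of the Mup rows on chromosome 4, 1 rose and 5 fell in tumour against precancerous liver, with a median log2 fold change of -0.05. The 5 include Gm12909 and Gm13775, which lie among the Mup rows, and were named after their values were seen. Gm13775 (61783123 to 61801286) spans the pseudogene Mup-ps16 (61797482 to 61800237). Its counts may therefore not be separate from those of a Mup row, which was not tested. The nearest on each side, Snx30 and Gm12543 before the cluster and Slc31a2 and Fkbp15 after it, had levels of 1.38, 10.3, 4.25 and 4.31 FPKM in male tumour, against 1.13, 12.0, 3.23 and 3.96 FPKM in male precancerous liver. In females they had 1.21, 3.996, 3.31 and 4.99 FPKM in tumour, against 1.56, 1.47, 3.39 and 5.02 FPKM in precancerous liver. Over both sexes none of these 4 was called (edgeR adjusted p = 0.521 to 0.881).

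Genes of growth hormone signalling, with some of its targets, and genes known to act on Mup transcription were counted from lists. For these lists, the neighbours and the other Mup rows alike, 12.1% of tested genes were called lower and 13.8% higher in tumour against precancerous liver, and 18.2% lower and 19.1% higher in males against females. Among 17 tested genes of growth hormone signalling, 6 fell and 2 rose in tumour against precancerous liver (median log2 fold change -0.25). Igfals and Igf1, a carrier of insulin-like growth factor and the factor itself and both known targets of growth hormone, fell by 3.86 ± 0.31 and 3.21 ± 0.27 on the log2 scale (edgeR adjusted p = 0.00320 and 0.00337), and Igfbp3, which binds the same factor, rose by 2.77 ± 0.29 (edgeR adjusted p = 0.00495). The growth hormone receptor Ghr had 11.9 FPKM in male tumour and 48.4 in male precancerous liver, and 7.28 FPKM in female tumour and 40.4 in female precancerous liver. It fell by 2.28 ± 0.18 on the log2 scale (edgeR adjusted p = 0.00314). In precancerous against normal liver edgeR called none of the 17, with 6 higher and 0 lower at an unadjusted p under 0.05, 2 higher by DESeq2 and 0 by limma. In males 9 were lower than in females by edgeR, against 6 by DESeq2 and 4 by limma, each of which also called 2 higher.

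Of 8 hormone receptors, 4 fell in tumour against precancerous liver. The prolactin receptor Prlr fell by 2.62 ± 0.39 and the oestrogen receptor Esr1 by 1.52 ± 0.25 on the log2 scale (edgeR adjusted p = 0.0111 and 0.0138). Of 16 liver transcription factors and known Mup modifiers, 4 fell and 2 rose (2 and 2 by limma). Zbtb20, a repressor active in adult hepatocytes, fell by 3.77 ± 0.29 (edgeR adjusted p = 0.00314), the bile acid receptor Nr1h4 fell by 1.46 ± 0.18 (edgeR adjusted p = 0.00683) and Foxa3 rose by 0.93 ± 0.11 (edgeR adjusted p = 0.00658). Zhx2, which is known to affect Mup levels in mouse strains, was at 3.62, 5.92 and 3.73 FPKM in male tumour, precancerous and normal liver and was not called (log2 fold change -0.55 ± 0.16, edgeR adjusted p = 0.0586).

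Other sex-patterned liver genes were counted for comparison. Of 19 male-biased genes outside the family, 8 fell in tumour against precancerous liver (median log2 fold change -1.96). In precancerous against normal liver 1 fell (0.149% of all tested genes), and 14 were higher in males than in females. By limma 1 fell in tumour and 9 were higher in males, and by DESeq2 7 and 16. Of 18 female-biased genes, 4 fell and 1 rose in tumour against precancerous liver (median -2.28), and 7 were lower in males. By DESeq2 2 fell in tumour and 10 were lower in males, and by limma 1 and 2. Among the male-biased genes Cyp7b1, an oxysterol hydroxylase, fell by 3.35 ± 0.85 and Hsd3b5, a steroid dehydrogenase, fell by 5.72 ± 1.21 on the log2 scale (edgeR adjusted p = 0.0429 and 0.0269), and Slco1a1, an organic anion transporter, missed the threshold at -4.14 ± 1.35 (edgeR adjusted p = 0.0812). Among the female-biased genes A1bg fell by 9.27 ± 0.95 and Sult3a1 by 6.55 ± 1.49 (edgeR adjusted p = 0.00481 and 0.0322).

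Broader lists stood for liver secretion and for the lipocalin family. Of 22 abundant secreted hepatocyte proteins, 4 fell and 1 rose in tumour against precancerous liver (6 and 5 by DESeq2, 3 and 1 by limma), with a median log2 fold change of 0.05. Of 8 tested lipocalins outside the Mup genes, 1 fell and 1 rose by edgeR (1 and 2 by DESeq2, 1 and 1 by limma). Orm3 fell by 4.68 ± 0.34 (edgeR adjusted p = 0.00286), and Apom, a carrier of sphingosine-1-phosphate, rose by 1.23 ± 0.18 (edgeR adjusted p = 0.0100).

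Cell type markers moved with the comparison too. Of the hepatocyte markers, 3 of 8 fell in tumour against precancerous liver, Tat, Cps1 and Asgr1; their sum was higher in tumours with Alb and, in females, lower without it, as given above. Cholangiocyte markers summed to 121 to 138 FPKM in tumours, 8.93 to 14.7 in precancerous liver and 11.6 to 12.4 in normal liver (2 of 3 tested rose). Stellate cell markers summed to 32.3 to 44.5, 8.15 to 13.4 and 9.46 to 16.1 FPKM in the same tissues (3 of 6 rose, 1 fell). Kupffer cell markers summed to 52.1 to 82.8, 230.0 to 270.5 and 137 to 167 FPKM (6 of 6 fell), and sinusoidal endothelial markers to 34.1 to 35.4, 59.4 to 70.7 and 54.0 to 69.8 FPKM (4 of 6 fell). T and NK cell markers summed to 3.63 to 3.97 FPKM in tumours, 1.42 to 1.63 in precancerous liver and 1.29 to 3.64 in normal liver (2 of 2 tested rose in tumour against precancerous liver, and 1 of 2 by DESeq2 and by limma). B and plasma cell markers ran from 13.6 to 416 FPKM over the 6 libraries (0 of 2 tested were called by edgeR, at an unadjusted p under 0.05, by DESeq2 or by limma), and adipocyte markers were at most 0.466 FPKM, with Lep at 0 counts in every library. The part of these cell types in the Mup differences was not tested.

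Genes of like pattern were sought among 6249 tested genes outside the family with at least 5 FPKM in some library, as the smallest root mean square difference of log2(FPKM + 1) profiles centred on their mean over the 6 libraries. The choice of the pseudocount decided much of this: on the log2(FPKM + 0.1) scale 0 of the 6 genes named for the summed profile and 0 of the 3 named for Mup20 were named again, against 3 of 3 for Mup3 and 1 of 3 for Mup21. The nearest to the summed Mup profile was Cyp4a12b, a male-biased fatty acid hydroxylase, at 0.57, followed by Gm15622, AW495222, Gm15690, Slco1a1 and Gm15962. Cyp4a12b had 1.76, 13.3 and 43.4 FPKM in male tumour, precancerous and normal liver and at most 0.0832 FPKM in females. Of these 6, 4 (all but Cyp4a12b and Slco1a1) are annotated as antisense genes, the class that took a larger share of male than of female libraries throughout. Nearest to Mup3 were Cyp7b1 at 0.46, Wfdc21 at 0.56 and C6, a complement protein, at 0.68. Nearest to Mup20 were Cyp4a12a, Gm37401 and Gm16537 (0.94 to 0.98), and nearest to Mup21 were Gm15883, Gm15756 and RP24-239L16.3 (0.79 to 0.96). Of these, Gm37401, Gm16537, Gm15883 and Gm15756 are also annotated as antisense genes. All exonic bases of RP24-239L16.3 lay under an exon of Hdac11 on the opposite strand. Cyp4a12a differed little between male tumour and precancerous liver, at 21.2 and 26.2 FPKM, with 139 FPKM in male normal liver, but it stood at 0.269 FPKM or less in females.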

How the data were processed

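Messenger RNA libraries from liver tissue (stranded mRNA kit, per the labels' protocols) were analysed from 1 deposited table of 34745 genes. The authors deposited raw counts per gene and FPKM values. Per the submitters' processing notes, TopHat2 2.0.9 and Cuffdiff were used, with GRCm38 (mm10); the counter, its strand setting and its treatment of multiply matching reads are not given in the sources used here. Deposited FPKM equalled count over gene length and library total within a ratio of 0.9997 to 1.0004 (15402 genes with 10 or more counts).

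Genes reaching FPKM 1 in 2 or more libraries were analysed with edgeR 4.0.16 (R 4.3.3) quasi-likelihood on the counts, TMM-normalized, with sex and tissue as additive terms over all 6 libraries. This leaves 2 residual degrees of freedom, which also carry any difference of a tissue effect between sexes. The two-sided threshold was 0.05 after Benjamini-Hochberg adjustment over all tested genes; SE is the fold change divided by the root of F. P-values measure only the spread between these libraries, which are not labelled as replicates. Single pairs are given as differences of log2(FPKM + 1), with exact binomial 95% counting intervals of the fold. DESeq2 1.42.0 and limma 3.58.1 served as alternatives. The edgeR step was run on simulated counts with changes in tumour alone, no sex difference and the same spread for every gene. That run does not cover sex differences, or tissue effects that differ between the sexes, such as those seen here. Sequences come from GENCODE M21 transcripts and RefSeq promoters (Biopython 1.88).

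The members and lists were chosen with earlier results of these data known. Named genes were the 10 members, other Mup rows at FPKM 1 or more, the nearest genes by profile, the nearest neighbours, and up to 3 genes of each list with the largest mean pair difference; Ghr and Zhx2 were added after their values were seen. Mitochondrial gene mt-Co1 and the antisense class were also chosen after values were seen. The values of 1 list gene that this rule names are not reported here.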

Additional observations from a re-analysis of the deposited data

Results flagged for a closer look

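Effects that went opposite ways in males and females, each beyond its own counting interval, are given as the male difference minus the female difference on the log2(FPKM + 1) scale. With 1 library in each group, none of these differences between sexes was tested.

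In precancerous against normal liver, Mup3 was slightly lower in males (-0.06) and higher in females (1.25), a difference of -1.32. Mup15 was lower in males (-2.03) and higher in females (1.09), a difference of -3.11, and Mup17 was lower in males (-2.52) and higher in females (1.37), a difference of -3.89. In tumour against normal liver, Mup20 was lower in males (-1.55) and higher in females (2.57), a difference of -4.12, and Mup21 was lower in males (-2.23) and higher in females (2.07), a difference of -4.30.

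Mup15 also changed sides between the sexes: it was slightly lower in males than in females in precancerous liver (-0.30) and higher in males in normal liver (2.81), a difference of -3.11 between the 2 tissues. Its reads are largely shared with other Mup genes.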

How the results depend on the processing

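No paired analysis was possible because each combination of tissue and sex has 1 library. The counts of 6, 1, 7 and 8 called genes (tumour against precancerous, precancerous against normal, tumour against normal, male against female) were within 1.5 times of these under DESeq2 size factors, under totals without Mup rows and under the DESeq2 Wald test. With limma-trend on log2(FPKM + 1) the first 3 were 3, 0 and 4. Without the sex term they were 0, 0 and 1, and without the tissue term the count for males against females was 4. With no filter beyond 1 count, precancerous against normal liver gave 2. Leaving out 1 library gave 3 to 7, 0 to 2, 5 to 8 and 3 to 8; the cause was not tested, but 1 residual degree of freedom remains in these fits, and the lone library of a tissue is taken to vary like the others. The direction of a fold change turned in 1 of 240 values under other settings, that of Mup20 in tumour against normal liver, -1.46 without the sex term. With 1 library left out, the ranges that crossed 0 were, in tumour against precancerous liver, -5.71 to 0.65 for Mup14, -0.41 to 3.15 for Mup20 and -3.03 to 0.12 for Mup21. In precancerous against normal liver they were -0.24 to 1.47 for Mup3, -2.56 to 1.74 for Mup14, -2.04 to 1.12 for Mup15, -2.67 to 1.54 for Mup17, -2.06 to 0.64 for Mup20 and -0.26 to 3.47 for Mup21. In tumour against normal liver they were -1.33 to 2.24 for Mup20 and -1.85 to 1.97 for Mup21, and in males against females -0.42 to 1.86 for Mup15. None of these genes was called in that comparison with all 6 libraries. Among called genes in tumour against precancerous liver the ranges were -8.80 to -3.03 for Mup1, -3.97 to -2.51 for Mup3, -7.74 to -3.98 for Mup7, -7.10 to -4.81 for Mup12, -7.05 to -4.54 for Mup15 and -7.09 to -5.24 for Mup16. Of the 15 genes named for likeness, 4 were named again with log2(FPKM + 0.1), and 6 among protein-coding genes alone, an alternative chosen after seeing the data. Of 297 single-pair differences under another pseudocount or total, 38 moved beyond counting error, by up to 2.91 on the log2 scale with log2(FPKM + 0.1), and none of at least 2-fold reversed. Mup1, Mup7, Mup12 and Mup14 in females rest on 0 to 35 counts, which limits their folds there.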
